A study of Rattus norvegicus with 8 samples.

Results

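Synaptic vesicles and the machinery of regulated exocytosis were examined as a set of 53 genes. The genes were chosen by name, with earlier results of these data known. Of these, 46 had at least 1 probe set assigned to that gene alone, and each was represented by its probe set with the highest mean signal. Sypl1, Synpr, Stx2, Rab3il1, Rims2, Napb and Pclo had none and were dropped. After probe sets with a mean signal under the 30th percentile (36.0) were left out, 40 of the 46 were tested, among 3623 genes tested in all. Stx3, Syt1, Syt2, Rph3a, Rims1 and Sv2b did not pass the filter.

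The cells were PC12, derived from a tumour of the rat adrenal medulla, which stores catecholamines and peptides in secretory vesicles. Every sample came from 1 stable line, Htt14A2.5, which carries an inducible construct for a truncated mutant exon 1 of human huntingtin, so the uninduced cells hold the construct too. The induced group was 4 samples given ponasterone (PA), the inducing steroid, for 48 h, and the uninduced group was 4 samples without it. No group in this series received ponasterone without the construct, so the steroid and the transgene product cannot be told apart. The titles set the groups, because the free-text description mentions induction for all 8. Nothing in the labels says whether the samples were separate cultures, so the p-values measure the spread between these samples, which may be technical.

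Each sample was measured on 1 oligonucleotide array, with 1 scaled signal for each probe set, and the number of arrays limits the precision. Median signals ran from 97.5 to 134.9. The deposited table holds no detection calls. As a mark for background, the 95th percentile of 38 control probe sets for absent or reverse-strand sequences was taken on each array, and lay between 102 and 183. The first principal component set induced replicate 4 (34.5) apart from the next array (12.8). The log2 ratio of 3' to 5' control signal of Gapdh, a measure of RNA quality, was 0.39 to 0.56 in induced and 0.20 to 0.50 in uninduced samples. That of hexokinase was 0.50 to 1.14 and 0.87 to 1.37, and that of actin -0.67 in induced replicate 3 and 0.08 to 0.57 on the other arrays. Of 11 chromaffin-type markers with a probe set, Chgb, Scg2, Phox2a, Gata3 and Ret exceeded the background mark on all 8 arrays. The 11 markers together summed to signals of 17044 to 18595 in induced and 17048 to 21327 in uninduced samples, with 1 of them called higher (Ret) and 2 lower (Phox2a and Gata3). Chgb and Phox2a made up most of these sums. The catecholamine enzymes Dbh and Ddc lay under the mark on all 8 arrays, and Th exceeded it on 1. Of the other chromaffin-type markers, Slc18a1 exceeded it on 7 arrays, Slc6a2 on 3 and Slc18a2 on 0. The Schwann and glial list summed to 569 to 755 in induced and 408 to 593 in uninduced samples, with 1 of 4 genes, Pmp22, called higher, while S100b, Mbp and Sox10 lay under the mark on all 8 arrays. The fibroblast markers Col1a1 and Col3a1 exceeded the mark on all 8 arrays. Fibroblast markers summed to 1552 to 1921 and 1407 to 1784, leukocyte markers to 96.8 to 271 and 91.9 to 187, and adrenal cortex markers to 76.9 to 171 and 92.8 to 242, with 0 calls in these 3 lists. The part of these shifts in the results below was not tested. In bulk RNA, fewer cells of a type and less RNA per cell cannot be told apart.

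In regulated exocytosis, vesicles filled with transmitter are tethered by Rab3 GTPases and active zone scaffolds, primed by Unc13 and CAPS proteins, and fused by SNARE proteins of the vesicle (VAMPs) and the target membrane (syntaxins and SNAP-25). Calcium sensors of the synaptotagmin and Doc2 families couple fusion to calcium entry. NSF and its adaptor alpha-SNAP then take the SNARE complexes apart, and dynamin and amphiphysin retrieve the membrane. PC12 cells use this machinery for dense-core granules and for small synaptic-like vesicles.

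Most of this machinery showed no called change. Differences are induced minus uninduced, fitted to the log2 of the signal plus 7. Induced samples had more transcript of the atypical synaptotagmin Syt4, which rose 2.01-fold. They had less of the vesicle membrane protein synaptophysin (Syp), which fell by 0.47 on the log2 scale, and less of the calcium sensor Doc2b, whose signal was near background. In all, 1 of the 40 tested genes was called higher and 2 lower (limma adjusted p under 0.05 over all 6129 probe sets tested), and 37 were not called. Over all probe sets, 4.1% were called higher and 2.97% lower, 7.06% together, against 7.5% of the members. The members' share of calls was therefore near the background share. Median centring of the arrays changed the split of all calls from 58.0% to 72.5% higher. The median log2 difference of the 40 genes, induced minus uninduced, was 0.03, and that of all probe sets tested was -0.05. Leaving out 1 array moved the members' median between -0.06 (without induced replicate 3) and 0.10 (without induced replicate 1), and it was below 0 in 4 of these 8 fits. The induced and uninduced arrays did not overlap in 10 of the 40 genes (25%), 7 higher and 3 lower after induction, against 13.6% of all probe sets tested. Each member stands for its gene by its brightest probe set, while all probe sets include dimmer ones, so such shares are not of like units. An unadjusted p under 0.05 was found for 10 of the 40 genes (25%) and for 18.0% of all probe sets tested, the background for such counts within each role.

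**Figure D1:**
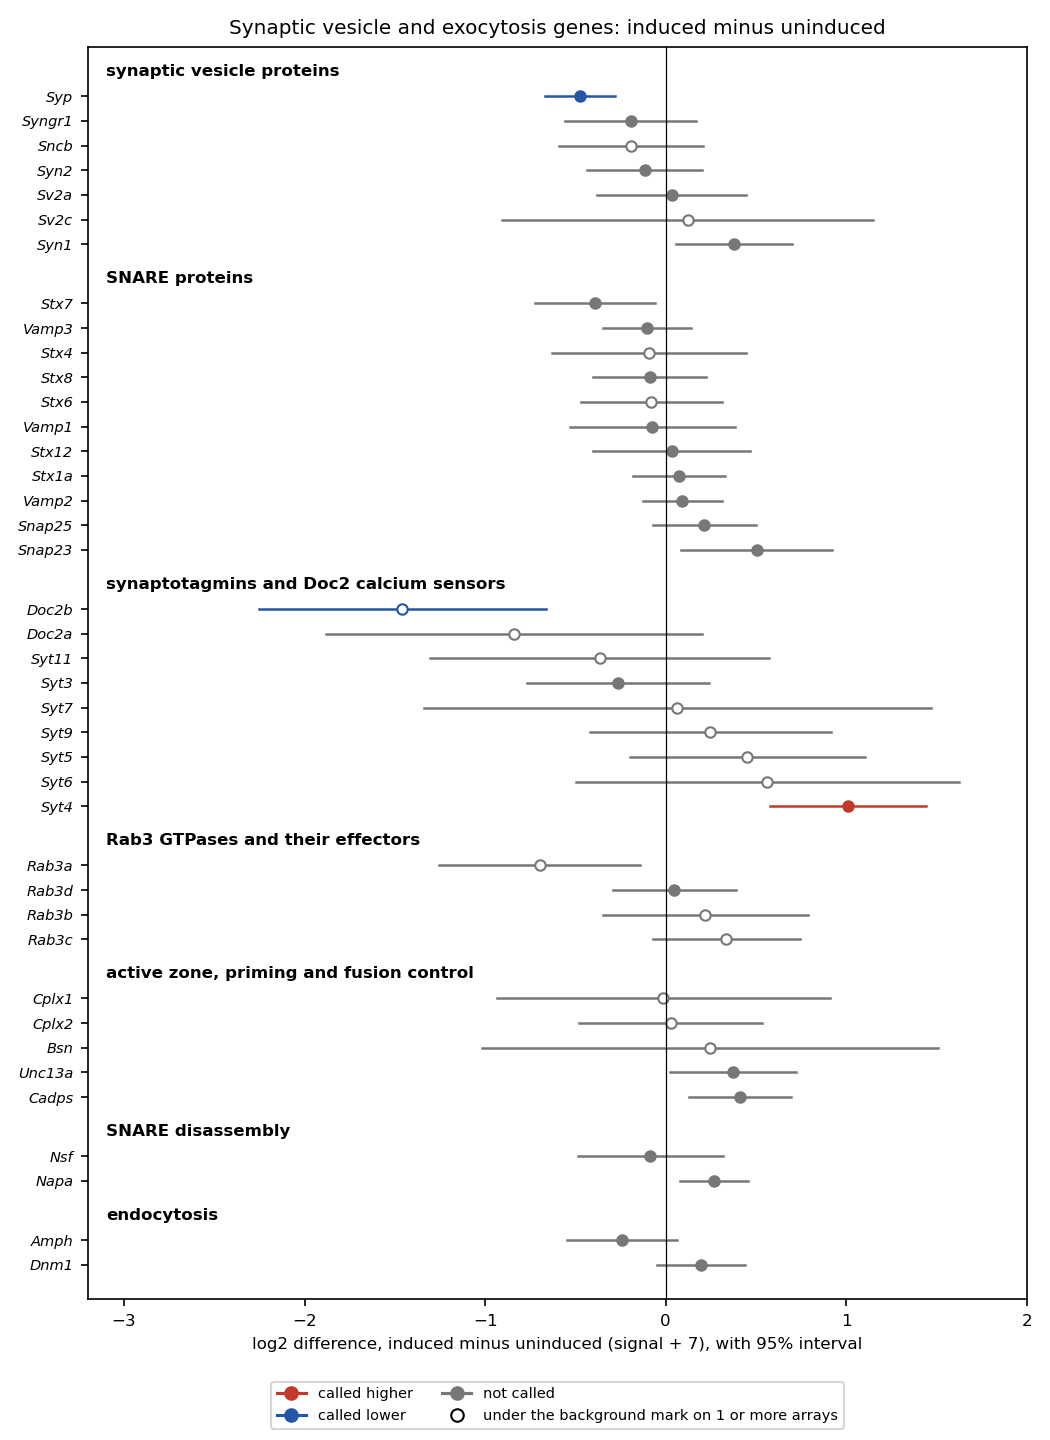
Fitted log2 difference (induced minus uninduced, signal plus 7) of the 40 tested genes, ordered within role, with 95% intervals; colour gives the call and open symbols mark genes under the background mark on 1 or more arrays. Syt4 lies to the right at 1.01, Syp at -0.47 and Doc2b at -1.46, and the widest intervals belong to dim genes.

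The level of the signal set how much could be seen. Of the tested genes, 23 exceeded the background mark on all 8 arrays, and their median standard error was 0.15 on the log2 scale. In 22 of these 23 the 95% interval of the difference lay within 1 log2 unit of 0, and in 12 within 0.5. The 12 genes above the mark on only some arrays had a median standard error of 0.26, and the 5 below it on every array one of 0.49. In the 5 dim genes, Doc2a, Syt6, Syt7, Cplx1 and Bsn, only 1 interval (Cplx1) stayed within 1 log2 unit of 0, and the other 4 left room for a 2-fold change in at least 1 direction.

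**Figure D2:**
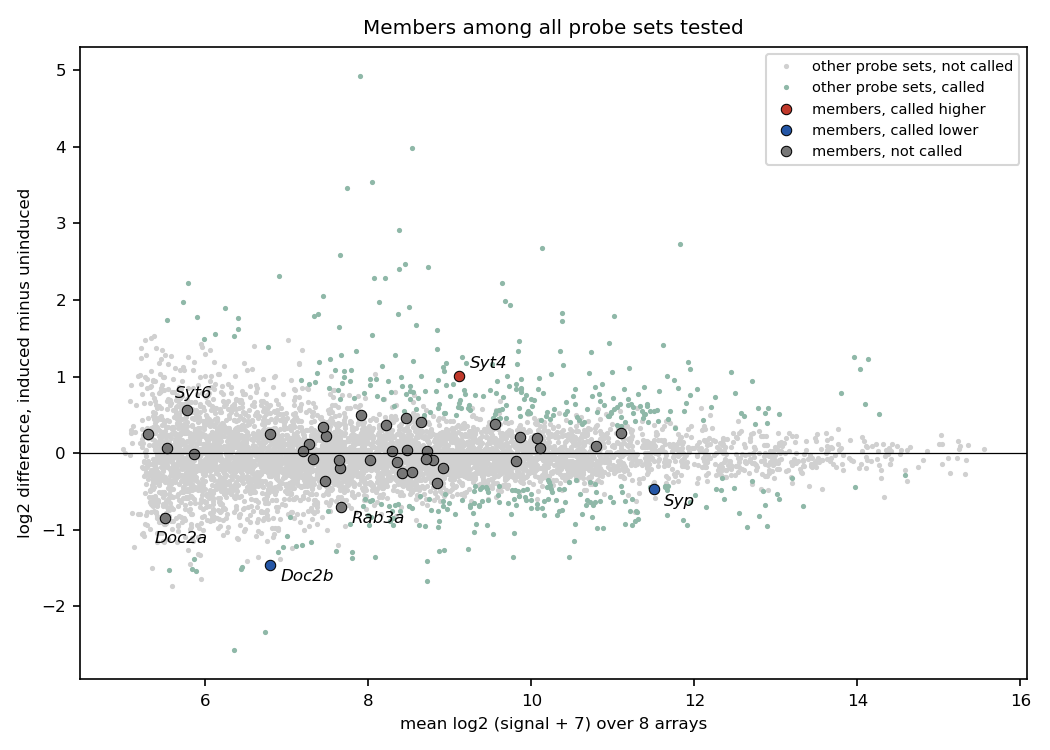
Log2 difference (vertical) against mean log2 signal plus 7 (horizontal) for all 6129 probe sets tested, with the 40 members outlined. The members spread over the same band as the other probe sets, with Syt4 above it and Syp and Doc2b at its lower edge.

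Among the proteins of the vesicle itself, 7 of 10 listed genes were tested, 1 was called lower and 0 higher, with a median difference of -0.12. Over all probe sets tested, 2.97% were called lower and 4.1% higher. Syp encodes synaptophysin, the abundant four-pass membrane protein by which small synaptic vesicles are usually identified. Its signals were 2277, 2410, 2773 and 2369 in induced replicates 1 to 4, and 3396, 3194, 3421 and 3627 in uninduced replicates 1 to 4. All 4 induced arrays were below all 4 uninduced arrays, and every array was far above background. The means were 2457 ± 218 and 3409 ± 177 (SD, n = 4 each), a log2 difference of -0.47 ± 0.09 (SE; limma adjusted p = 0.0067). The adjusted p was 0.120 with median centring, at a difference of -0.44, and 0.0517 without an intensity trend in the variance.

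Syn1, the gene of synapsin I, a phosphoprotein that ties vesicles to actin, lay the other way. Its signals were 696, 767, 854 and 1141 in induced replicates 1 to 4, and 692, 611, 676 and 629 in uninduced replicates 1 to 4. The groups did not overlap, but by a margin of 695.6 against 691.6 only, and induced replicate 4 was the highest. The log2 difference was 0.38 ± 0.15 (adjusted p = 0.186), which did not pass. Without induced replicate 4 it was 0.24.

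The other vesicle proteins differed by less. Syn2, the gene of synapsin II, differed by -0.12 (95% interval -0.43 to 0.20), and its other 2 probe sets by -0.09 and -0.22. The vesicle protein synaptogyrin, Syngr1, differed by -0.19 (-0.55 to 0.17), and its further probe sets by -0.16 and 0.08. Sv2a, a glycoprotein of synaptic and secretory vesicles, had mean signals of 310 ± 31.1 induced and 309 ± 78.4 uninduced. Its difference was 0.03 (-0.38 to 0.45), which does not show that the levels were the same. Its relative Sv2c differed by 0.12 with an interval from -0.90 to 1.15, and beta-synuclein, Sncb, by -0.19. Of this group only Syp was called.

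The 11 tested SNARE genes of 13 listed had 0 calls in either direction by the limma test, with 2 at an unadjusted p under 0.05 (Snap23 and Stx7; 18.0% of all probe sets), and a median of -0.07. The 3 genes of the classical fusion complex were well above background. Vamp2, the vesicle SNARE synaptobrevin 2, had 1828 ± 143 in induced and 1715 ± 163 in uninduced samples, a difference of 0.09 with a 95% interval from -0.13 to 0.31. Stx1a, the plasma membrane syntaxin, differed by 0.07 (-0.18 to 0.33), and its second probe set by -0.05. Snap25, the membrane-attached SNARE cleaved by some botulinum toxins, differed by 0.22 (-0.07 to 0.50). These intervals leave room for changes of up to 0.50 log2 units and do not show that the levels were the same. Of the other 3 Snap25 probe sets, the brightest differed by 0.10 and the dimmer ones by 0.67 and -0.42.

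Snap23, the widely expressed relative of Snap25, was the SNARE gene with the largest difference. The induced signals of replicates 1 to 4 were 362.5, 301, 248 and 227, and the uninduced ones 216, 186, 224 and 162. The groups did not overlap, with the closest arrays at 226.6 and 223.6. The difference was 0.50 ± 0.19 (adjusted p = 0.175) and was not called. A second Snap23 probe set read 143, 141, 168 and 250.2 in induced and 104, 103, 98.5 and 92.9 in uninduced samples, again without overlap, a difference of 0.74 ± 0.23 (adjusted p = 0.0884). This second probe set exceeded the background mark on 4 induced and 0 uninduced arrays, so the size of its difference depends on the background. When all probe sets of each gene were averaged, Snap23 passed (adjusted p = 0.0389); over its other 17 alternatives it did not, with values up to 0.498.

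Stx7, a syntaxin of late endosomes, lay lower after induction without passing the test. Its induced signals were 357, 493, 341 and 396, and its uninduced signals 465, 477, 622 and 518, in replicates 1 to 4. The groups overlapped through induced replicate 2. The difference was -0.39 ± 0.15 (adjusted p = 0.190). The endosomal and Golgi syntaxins Stx6, Stx8 and Stx12 and the plasma membrane syntaxin Stx4 differed by -0.08, -0.09, 0.03 and -0.09, and cellubrevin, Vamp3, by -0.10 (-0.34 to 0.14). The second Stx8 probe set differed by 0.06 and that of Stx12 by 0.35. Stx3 read 18.1 or less on every array and was not tested.

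Vamp1, the other synaptobrevin, gave different answers by probe set. Its brightest probe set differed by -0.07 ± 0.21 and was not called. A second, designed on the same deposited transcript, read 279, 370.2, 335 and 297 in induced and 530, 422.5, 494 and 454 in uninduced samples. Those groups did not overlap, and the difference of -0.56 ± 0.14 was called (adjusted p = 0.0317), in 7 of 17 alternatives too. Of the single arrays, that call ended without induced replicate 1 (adjusted p = 0.0909), 3 (0.0560) or 4 (0.0638), and without uninduced replicate 1 (0.0980), 3 (0.0970) or 4 (0.0542). This probe set was singled out after its values were seen.

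**Figure D3:**
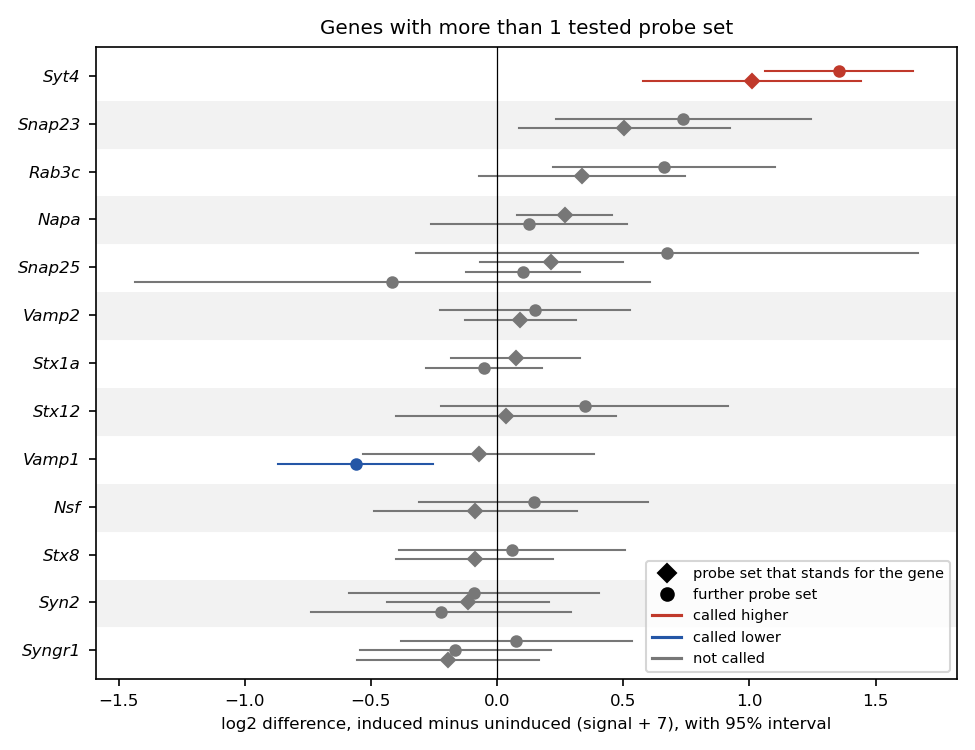
Log2 differences with 95% intervals for the 13 genes with more than 1 tested probe set; diamonds are the probe set that stands for the gene and circles the further ones. Both Syt4 probe sets lie above 1.00, and for Vamp1 only the further probe set, at -0.56, is called.

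Of 11 synaptotagmin and Doc2 genes 9 were tested, and 1 was called higher (Syt4) and 1 lower (Doc2b). Over all probe sets tested, 4.1% were called higher and 2.97% lower. With so few genes, these counts do not set the calcium sensors apart. The lower call was near background and ended in 11 of 18 alternatives. Syt4 encodes synaptotagmin 4, which binds calcium poorly through its first C2 domain and sits on dense-core granules and Golgi-derived vesicles in PC12 cells. Its signals were 709, 627, 745 and 1122 in induced replicates 1 to 4, and 379, 302, 374 and 509 in uninduced replicates 1 to 4. All 4 induced arrays exceeded all 4 uninduced arrays, and replicate 4 was the highest in both groups. The means were 801 ± 220 and 391 ± 85.9 (SD, n = 4 each), a log2 difference of 1.01 ± 0.20 (adjusted p = 0.0081). It passed in all 18 alternatives, at 0.84 to 1.18, with the lowest value without induced replicate 4. The second Syt4 probe set read 770.2, 609.9, 846 and 705 in induced and 277, 308, 270.2 and 267 in uninduced samples. It rose by 1.36 ± 0.13 (adjusted p = 6.2e-05), again without overlap.

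Doc2b, a soluble sensor with a pair of C2 domains that responds to low calcium and promotes asynchronous and spontaneous release, was lower. Its signals were 120.5, 36.0, 65.8 and 43.6 in induced replicates 1 to 4, and 213, 145, 253 and 125 in uninduced replicates 1 to 4. The groups did not overlap, with 120.5 against 125 as the closest arrays. Only 3 arrays, all uninduced, exceeded their background mark, so the size of the difference depends on the background and on the constant added. The log2 difference was -1.46 ± 0.36 (adjusted p = 0.0300), and -1.17 after adding 32 in place of 7. The call ended without induced replicate 2 (adjusted p = 0.0783), 3 (0.0560) or 4 (0.0682), and without uninduced replicate 1 (0.0922), 2 (0.0578) or 3 (0.109). Without any 1 of these arrays the count of members called lower was 1. Its relative Doc2a lay under the background mark on all 8 arrays, at 31.2 ± 19.6 induced and 55.5 ± 16.4 uninduced, and was not called (-0.84 ± 0.48).

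The other synaptotagmins were dim or varied widely. Syt1, the main sensor of fast release, read between 6.2 and 58.9, under the background mark on all 8 arrays, and Syt2 between 3.4 and 50.9. Syt5 had induced signals of 309, 504, 347 and 492 and uninduced signals of 144, 324.5, 397 and 395.5, in replicates 1 to 4. The groups overlapped, and uninduced replicate 1 was the lowest; the difference was 0.45 ± 0.30 and 0.12 without that array. Syt11, the closest relative of Syt4, read 49.2, 185, 206 and 250.5 in induced and 231, 118.5, 191.5 and 267 in uninduced samples. The groups overlapped, the difference was -0.36 ± 0.43, and it was 0.13 without induced replicate 1. Syt3 read 199, 339, 297 and 419 in induced and 434, 263, 369 and 420.0 in uninduced samples. It differed by -0.26 ± 0.23, with overlapping groups. Syt6, Syt7 and Syt9 differed by 0.56, 0.06 and 0.25, with intervals that all included 0.

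**Figure D4:**
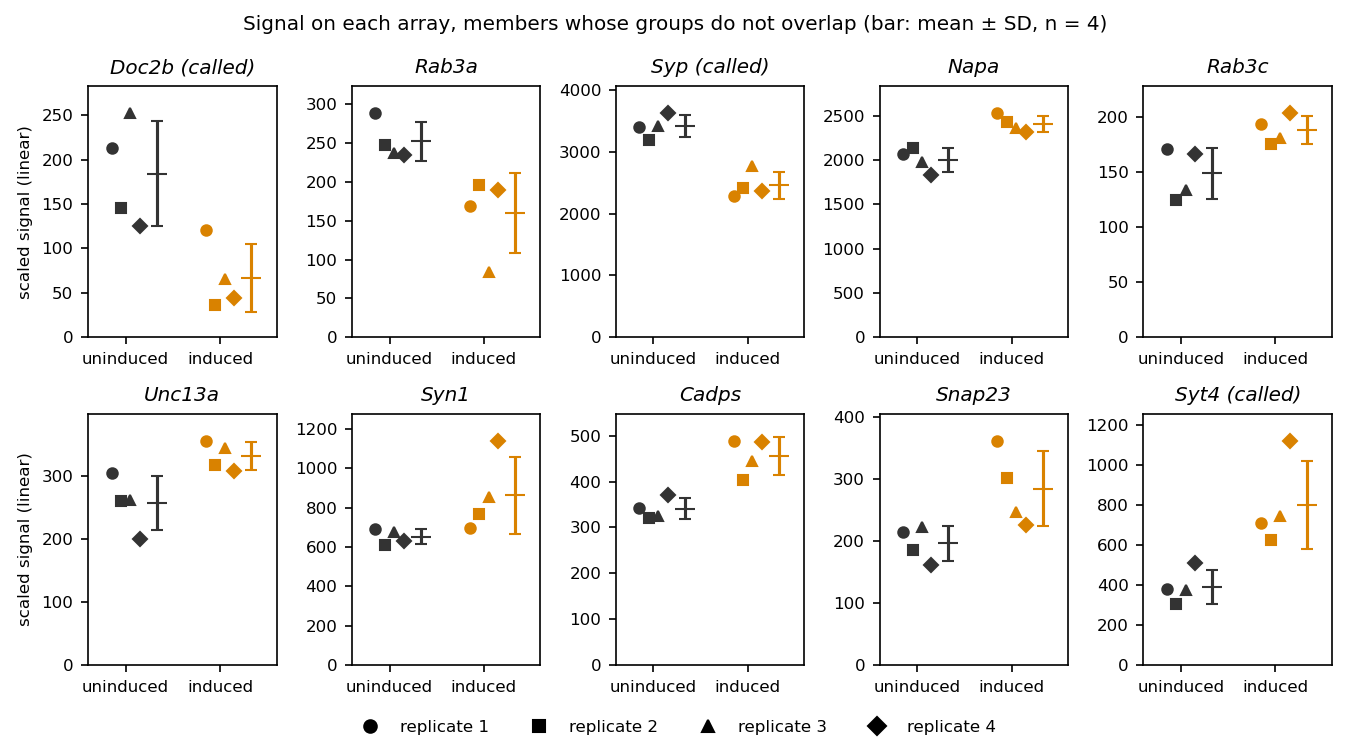
Scaled signal (linear, from 0) on each array for the 10 genes whose induced and uninduced arrays do not overlap, with replicates as symbols and the mean and SD beside them (n = 4 per group). Syt4, Syp and Doc2b were called; the gap between groups is narrow for Syn1, Snap23, Rab3c, Unc13a and Doc2b.

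None of the 4 tested Rab3 genes, of 8 listed Rab3 GTPases and effectors, was called by limma, and 1, Rab3a, had an unadjusted p under 0.05, as did 18.0% of all probe sets. Rab3a, the Rab of synaptic vesicles, read 169.5, 196.5, 83.8 and 190.2 in induced replicates 1 to 4, and 289, 247.5, 237 and 235 in uninduced replicates 1 to 4. The groups did not overlap, and induced replicate 3 was the lowest and under its background mark. The difference was -0.70 ± 0.25 (adjusted p = 0.150), ranging from -0.82 to -0.43 over the alternatives, the latter without that array. Rab3c, a related vesicle Rab, read 193, 175, 180.5 and 203 in induced and 171, 124, 133.5 and 166 in uninduced samples. These groups did not overlap either, with a difference of 0.34 ± 0.19 (adjusted p = 0.393). Its second probe set differed by 0.66 ± 0.20 (adjusted p = 0.0780), also without overlap. That probe set exceeded the background mark on 4 induced and 0 uninduced arrays, so the size of its difference depends on the background. Rab3b read 132, 157, 196 and 294 in induced and 203, 147, 124 and 171 in uninduced samples, which overlapped (0.22 ± 0.26). The other Rab3b probe set lay the other way, without overlap. It read 6.0, 9.4, 12.7 and 13.6 in induced and 19.5, 38.5, 14.8 and 60.1 in uninduced samples. It was under the background mark on every array, did not pass the filter and was not tested. Rab3d, found on secretory granules, differed by 0.05 (-0.29 to 0.39). The effectors Rph3a (rabphilin) and Rims1 (the active zone protein RIM1) read 77.4 and 25.3 at most.

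None of the genes for priming, fusion control and active zone scaffolds was called. In this group of 6 listed genes 5 were tested, limma called 0, and Cadps and Unc13a had an unadjusted p under 0.05, as did 18.0% of all probe sets. Cadps encodes CAPS-1, a priming factor of dense-core granules. It read 489, 402.5, 445 and 486 in induced replicates 1 to 4, and 343, 321, 325 and 372 in uninduced replicates 1 to 4. The groups did not overlap and differed by 0.41 ± 0.13 (adjusted p = 0.0887); over the 18 alternatives the adjusted p ran from 0.0549 to 0.230. Unc13a encodes Munc13-1, the priming factor that opens syntaxin. It read 356, 318, 345 and 307.5 in induced and 304, 259.5, 262 and 201 in uninduced samples. The closest arrays stood at 307.5 and 304.2, and the difference was 0.37 ± 0.16 (adjusted p = 0.244). Unc13b, a related priming factor of the wider list given further on, was dim, at 75.7 ± 62.8 induced and 82.5 ± 9.64 uninduced, and differed by -0.40 ± 0.45 (adjusted p = 0.741). The complexins Cplx1 and Cplx2, which clamp and assist the SNARE complex, differed by -0.01 (-0.93 to 0.91) and 0.03 (-0.48 to 0.54). The scaffold gene Bsn (bassoon) lay under the background mark on all 8 arrays.

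After fusion, SNARE complexes are taken apart by Nsf, an ATPase, with alpha-SNAP, the product of Napa. Napa read 2530, 2424, 2356 and 2315 in induced replicates 1 to 4, and 2064, 2136, 1971 and 1828 in uninduced replicates 1 to 4. The groups did not overlap, and the difference of 0.27 ± 0.09 did not pass (adjusted p = 0.0960). Its dimmer probe set differed by 0.13 with overlapping groups. Nsf differed by -0.09 (-0.49 to 0.32), and its dimmer probe set by 0.14. Of the membrane retrieval genes, Dnm1, the neuronal dynamin, differed by 0.20 (-0.05 to 0.44). Amph, amphiphysin, read 337, 317.5, 302 and 388 in induced and 407, 417, 427 and 343 in uninduced samples. Those groups overlapped through replicate 4 and differed by -0.24 ± 0.14.

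A wider list of 136 other genes of exocytosis, endocytosis and transmitter loading gave 76 tested genes, of which 2 were called higher, 2 lower and 72 not called, with a median of -0.01. Over all probe sets tested 7.06% were called, 4.1% higher and 2.97% lower, and the share in this list was not above that. Bin1, amphiphysin 2, rose by 0.77 ± 0.09, from 1385 ± 85.7 to 2361 ± 123 (SD, n = 4 each; adjusted p = 2.0e-04). Of 5 tested genes of the proton pump that drives transmitter loading, 1 was called higher, 1 lower and 3 not called. Atp6v1b2, of its cytosolic sector, fell by 0.82 ± 0.09, from 9431 ± 1088 to 5327 ± 280 (adjusted p = 2.0e-04). Atp6v0a1, of its membrane sector, rose by 0.56 ± 0.13, from 2453 ± 299 to 3639 ± 536 (adjusted p = 0.0157). That call ended without an intensity trend in the variance (0.0850) and without replicate 2 of both groups (0.0983). The genes not called were Atp6v1a, also of the cytosolic sector, at a difference of 0.27, Atp6v0c at 0.12 and the accessory subunit Atp6ap1 at 0.15. Syt17, a C2-domain protein related to the synaptotagmins, fell by 0.48 ± 0.12 (adjusted p = 0.0247). The call of Syt17 ended in 6 of the 8 fits without 1 array, namely without induced replicate 1 (adjusted p = 0.0694), 2 (0.0576) or 4 (0.0563) and without uninduced replicate 1 (0.0764), 2 (0.0637) or 3 (0.0808). It also ended with median centring (0.234), without the variance trend (0.0787) and without replicate 2 of both groups (0.132). Bin1 and Atp6v1b2 passed in all 17 alternatives run for them, which did not include the averaging of probe sets. Each gene of this list was represented by its brightest probe set only, and any further probe sets were not examined.

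Promoters are shown for the called genes with an entry, Syt4 and Syp, and for Syn1, whose window holds both motifs found among the members. RefSeq windows of 250 bases before the annotated start (assembly GRCr8) matched 39 of the 46 genes; Doc2b, Doc2a, Snap25, Syngr1, Syt5, Syt7 and Vamp3 were not matched. Each is written 5′ to 3′ on the gene's strand, and capitals mark a match on either strand to the cAMP response element TGACGTCA, an AP-1 site (TGANTCA) or an Egr site (GCGNGGGCG). These motifs did not overlap each other in the windows shown.
Syt4, chr18:23320864-23321113, minus strand: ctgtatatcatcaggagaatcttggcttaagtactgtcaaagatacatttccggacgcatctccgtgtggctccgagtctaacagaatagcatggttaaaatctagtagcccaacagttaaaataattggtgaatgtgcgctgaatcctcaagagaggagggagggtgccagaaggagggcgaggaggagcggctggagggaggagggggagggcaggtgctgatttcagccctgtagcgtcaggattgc
Syp, chrX:17536450-17536699, minus strand: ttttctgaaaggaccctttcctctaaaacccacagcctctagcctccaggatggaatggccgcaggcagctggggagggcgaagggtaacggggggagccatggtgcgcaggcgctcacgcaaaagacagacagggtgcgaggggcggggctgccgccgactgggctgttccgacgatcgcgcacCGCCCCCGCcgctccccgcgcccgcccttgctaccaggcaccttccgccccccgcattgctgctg
Syn1, chrX:3725495-3725744, plus strand: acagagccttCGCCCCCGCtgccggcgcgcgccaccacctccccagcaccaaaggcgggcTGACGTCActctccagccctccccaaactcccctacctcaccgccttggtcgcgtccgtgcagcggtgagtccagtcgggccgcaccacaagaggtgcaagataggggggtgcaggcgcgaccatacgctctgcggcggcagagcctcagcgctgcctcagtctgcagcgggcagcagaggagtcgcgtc

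The Syt4 window held none of the 3 motifs. The Syp window held an Egr match that begins 65 bases before the start, and the Syn1 window held an Egr match 240 bases and a cAMP response element 190 bases before it. Egr matches lay in 8 of the 39 members' windows (20.5%: Nsf, Rab3d, Syn1, Syn2, Syp, Syt1, Unc13a and Vamp2) and in 4.29% of 33469 rat promoters. The members' windows were also richer in G and C, with a median of 64.8% against 51.2%. Of these 8 genes 7 were tested, and their differences ran from -0.47 (Syp) to 0.38 (Syn1), 4 above and 3 below 0. Cyclic AMP elements lay in 3 members' windows (Napa, Syn1 and Vamp1) and in 1.59% of all promoters, and AP-1 matches in 0 and 6.34%. A match describes letters in this window and does not show that a factor binds there.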

How the data were processed

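The authors deposited 1 table of linear signal intensity values for 8799 probe sets and 8 arrays. They had scaled it, since the mean of each array after trimming 2% from each end was 500.8 to 500.9; the program is not given in the sources used here. An annotation table of the array named a single gene for 7018 probe sets, more than 1 gene for 308 and no gene for 1473. The members and gene lists were chosen with earlier results of these data known.

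The 59 control probe sets were left out, with 2611 others whose mean signal was under the 30th percentile (36.0). The remaining 6129 were transformed as log2(signal + 7), where 7 is about the 10th percentile of all values (6.7), and fitted with limma 3.58.1 in R 4.3.3 (eBayes with an intensity trend), induced minus uninduced, without a block for the replicate number. P-values were adjusted over all 6129 by Benjamini-Hochberg, at a threshold of 0.05. Errors of signals are SDs and errors of log2 differences standard errors; folds come from the fitted differences and include the added 7. On simulated data with 200 changed probe sets among 6129, the fit recovered 58% of changes of size 1 and 84% of size 2, with 13 of 155 calls false. The simulated noise was drawn independently for each probe set, without deviations shared by a whole array. These rates therefore need not hold for the real arrays.

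Signals per array are given for members that were called or whose groups did not overlap, and for the next 6 by size of difference among those above background. A probe set may also bind transcripts of a close relative of its gene. Of 17 further probe sets tested, 12 had the sign of the probe set that stands for the gene and 5 the opposite sign. Alternatives were other added constants, filters, scalings and variance models, averaged probe sets per gene, a replicate block and arrays left out. The same alternatives for the wider list and for further probe sets were added after seeing the data.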

Additional observations from a re-analysis of the deposited data

Results flagged for a closer look

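Among 80 sets of 4 arrays (40 genes in 2 groups), 2 held an array whose gap to its nearest neighbour, as a share of the set's range on the log2 scale, was above Dixon's 95% critical value. Chance alone gives about 1 in 20 sets. Syt9 read 48 in uninduced replicate 4, against 106.9 to 125 in the other uninduced arrays. Vamp2 read 1613.7 in induced replicate 1, against 1879 to 1912 in the other induced arrays.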

How the results depend on the processing

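The 433 calls over all probe sets became 229 with median centring, 279 without a variance trend and 221 without replicate 2 of both groups, and 313 to 408 without 1 array. The members called higher numbered 1 throughout, except 2 when the probe sets of each gene were averaged (Syt4 and Snap23). The members called lower numbered 1 with no filter, with quantile normalization and without replicate 2 of both groups, 0 with median centring and without a variance trend, and 1 to 2 without 1 array. The median difference of the members was -0.056 to 0.098 without 1 array. In the fits without 1 array, Syt11 ranged from -0.61 (without induced replicate 4) to 0.13 (without induced replicate 1), a reversal; without replicate 2 of both groups it was -0.69. Of 390 values of 22 named results under 18 alternatives, 354 kept their direction and side of the threshold, 34 lost the call, 1 gained it and 1 reversed. Only results called at the outset could lose a call, and many of the 354 values belong to results that were not called. Syp lost its call in 2 of 18 alternatives and Doc2b in 11. The further Vamp1 probe set lost its call in 10 of 17, Syt17 in 9 and Atp6v0a1 in 2. With the replicate number as a block (replicate block), Syt4 was called at an adjusted p of 0.0017, Syp at 0.0214 and Doc2b at 0.0158, the same 3 members. Same-numbered arrays deviated together with correlations of -0.14 to 0.19 across probe sets, and differently numbered arrays with -0.21 to 0.20. With so few arrays, this cannot show whether same-numbered samples shared a culture or a batch. The block gave 367 calls over all probe sets, and the further Vamp1 probe set was not called (limma adjusted p = 0.0905). The cause of these changes was not tested. Signals near the background mark limit what can be said of the dim genes.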
